A study of Mus musculus with 12 samples.

Results

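Extracellular ATP, NAD and adenosine act on T cells through a small set of surface receptors and enzymes, and the level of 7 of their genes was followed here in sorted thymic *i*NKT cells of miR-155KI and WT mice. The genes were *P2rx7*, *P2rx4*, *Entpd1*, *Nt5e*, *Adora2a*, *Art2b* and *Cd38*, taken by symbol, and all 7 were found among the 48709 rows of the count table. ATP outside the cell opens the channels encoded by *P2rx7* and *P2rx4*. CD39, encoded by *Entpd1*, degrades ATP and ADP to AMP, CD73, encoded by *Nt5e*, turns AMP into adenosine, and the adenosine receptor encoded by *Adora2a* raises cAMP and restrains T cell activation. NAD outside the cell is used by ARTC2.2, the product of *Art2b*, which attaches ADP-ribose to surface proteins of mouse T cells and in that way can open the *P2rx7* channel, and it is broken down by CD38.

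RNA was sequenced from miR-155KI NK1.1+, WT NK1.1+, miR-155KI NK1.1- and WT NK1.1- thymic *i*NKT cells, with 3 libraries per group and 12 in all, from C57BL/6J mice of 7 weeks. The miR-155KI mice carried CD4Cre and 2 copies of a miR-155 knock-in allele in Rosa26 with a GFP reporter, so that Cre driven by the *Cd4* promoter switched the cassette on in the whole T cell lineage and not only in *i*NKT cells. The WT mice were littermates with the knock-in allele and no Cre. Thymocytes were depleted of CD8+ cells with beads and sorted on TCRβ, the CD1d tetramer, NK1.1 and CD44. *i*NKT cells carry an invariant TCR that sees lipids on CD1d, and most NK1.1+ cells of the mouse thymus are *i*NKT1 cells, while the NK1.1- pool mixes *i*NKT2, *i*NKT17 and immature cells. In such bulk pools, fewer cells of a type and less RNA per cell cannot be told apart. Neither the labels nor the methods tie a library to named mice, and the methods speak of pooled replicates, so a p-value here speaks of the variation among the libraries sequenced, some of it perhaps technical.

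Levels are CPM, counts scaled to a common library size with TMM factors over all 12 libraries, and means are given with the SD over 3 libraries. The total per library was between 12819476 and 20518257 counts, and the 7 genes had between 64 counts, for *Cd38*, and 7499 counts, for *Adora2a*, in a library. *Mir155hg*, the host transcript of miR-155, averaged 113 ± 16.6 CPM in miR-155KI NK1.1+ cells and 11.7 ± 0.490 CPM in WT NK1.1+ cells, and 138 ± 6.19 CPM in miR-155KI NK1.1- cells and 12.1 ± 2.15 CPM in WT NK1.1- cells, although its counts do not tell the cassette from the endogenous gene. *Klrb1c*, which encodes NK1.1, averaged 534 ± 101 and 526 ± 219 CPM in miR-155KI and WT NK1.1+ cells, and 43.4 ± 6.98 and 70.1 ± 10.2 CPM in miR-155KI and WT NK1.1- cells. *Cd3e*, *Cd3g*, *Trbc1*, *Trbc2* and *Zbtb16* were above 216 CPM in every library. Replicate 1 of both WT pools stood apart in sex-linked genes. *Xist*, the RNA that coats the inactive X chromosome, was at 11.4 and 12.6 CPM in these 2 libraries, against 135 to 237 CPM in the other WT libraries and 8.19 to 35.0 CPM in the miR-155KI libraries. Genotype results are therefore also given with all miR-155KI libraries set against WT replicate 1 alone.

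**Figure D1:**
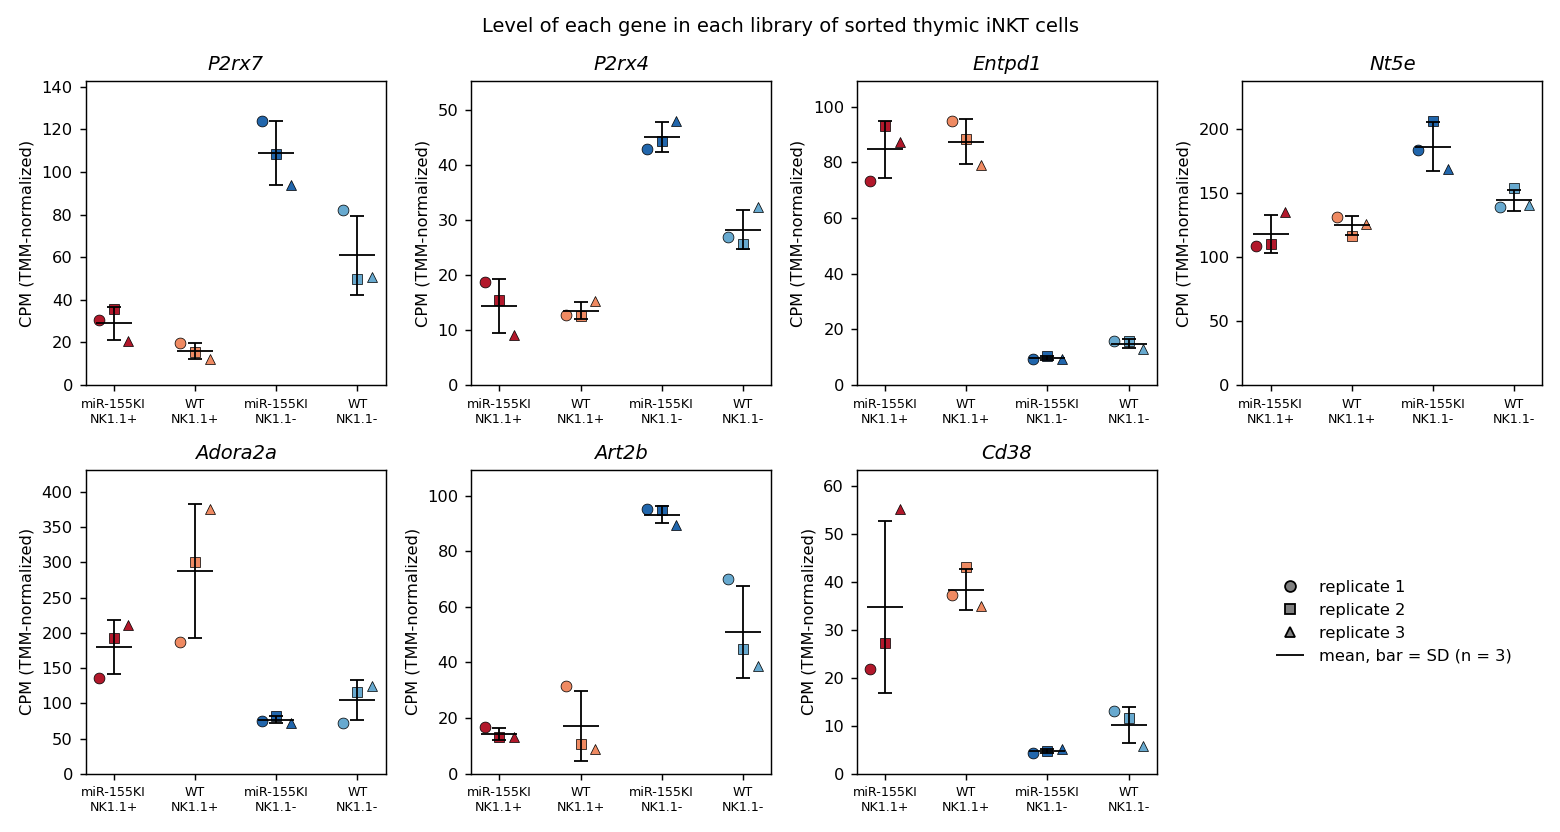
Level of each gene in TMM-normalized CPM (y axis, from 0) in each library, by group (x axis), with the group mean and SD (n = 3). *Entpd1*, *Adora2a* and *Cd38* lay higher in every NK1.1+ library than in any NK1.1- library of the same genotype, while *P2rx7*, *P2rx4*, *Nt5e* and *Art2b* lay lower.

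More of the 7 genes differed between the pools than between the genotypes. In both genotypes, *Entpd1*, *Adora2a* and *Cd38* were higher in NK1.1+ than in NK1.1- cells, and *P2rx7*, *P2rx4*, *Art2b* and *Nt5e* were lower, so the sign was shared by 7 of 7 genes. In miR-155KI cells, 3 genes rose and 4 fell in NK1.1+ relative to NK1.1- cells with edgeR's quasi-likelihood test at an adjusted p under 0.05, beside 14.1% of all genes tested. In WT cells 3 genes rose and 2 fell, beside 20.8% of all genes, and 5 genes passed in both genotypes with the same sign. The 3 NK1.1+ and 3 NK1.1- libraries did not overlap for any of the 7 genes, which also held for 34.5% of all genes in miR-155KI cells and for 39.0% in WT cells. The median log2 fold change of the 7 genes was -0.66 in miR-155KI cells and -0.24 in WT cells, against 0.03 and 0.01 over all genes tested.

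Between the genotypes, *P2rx4*, *Art2b* and *P2rx7* rose in miR-155KI NK1.1- cells. These 3 of 7 genes passed the same test in NK1.1- cells, all of them higher, beside 3.44% of all genes tested. With all 12 libraries in one fit the log2 fold changes were 0.84, 0.67 and 0.87 for *P2rx7*, *P2rx4* and *Art2b*, and none passed, with edgeR adjusted p-values of 0.133, 0.246 and 0.451. The libraries of both genotypes did not overlap for 6 of 7 genes in NK1.1- cells, 4 of them higher and 2 lower, beside 23.1% of all genes. In NK1.1+ cells, 0 of 7 genes passed in edgeR, DESeq2 or limma-voom, and in edgeR 0.0231% of all genes passed. An unadjusted p under 0.05 in edgeR was found for 2 of the 7, and for 1539 of all 12991 genes tested. Only *P2rx7* did not overlap between the genotypes there, which was so for 16.8% of all genes. The interaction of genotype and pool, fitted over all 12 libraries, passed for 0 of 7 genes in the 3 tools, and for 0.0278% of all genes in edgeR. Its unadjusted p in edgeR was under 0.05 for 2 of the 7, and for 1167 of all 14401 genes tested. The median log2 fold change of the 7 genes, miR-155KI over WT, was -0.09 among NK1.1+ libraries, where all genes had 0.02, and 0.35 among NK1.1- libraries, where all genes had -0.00.

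**Figure D2:**
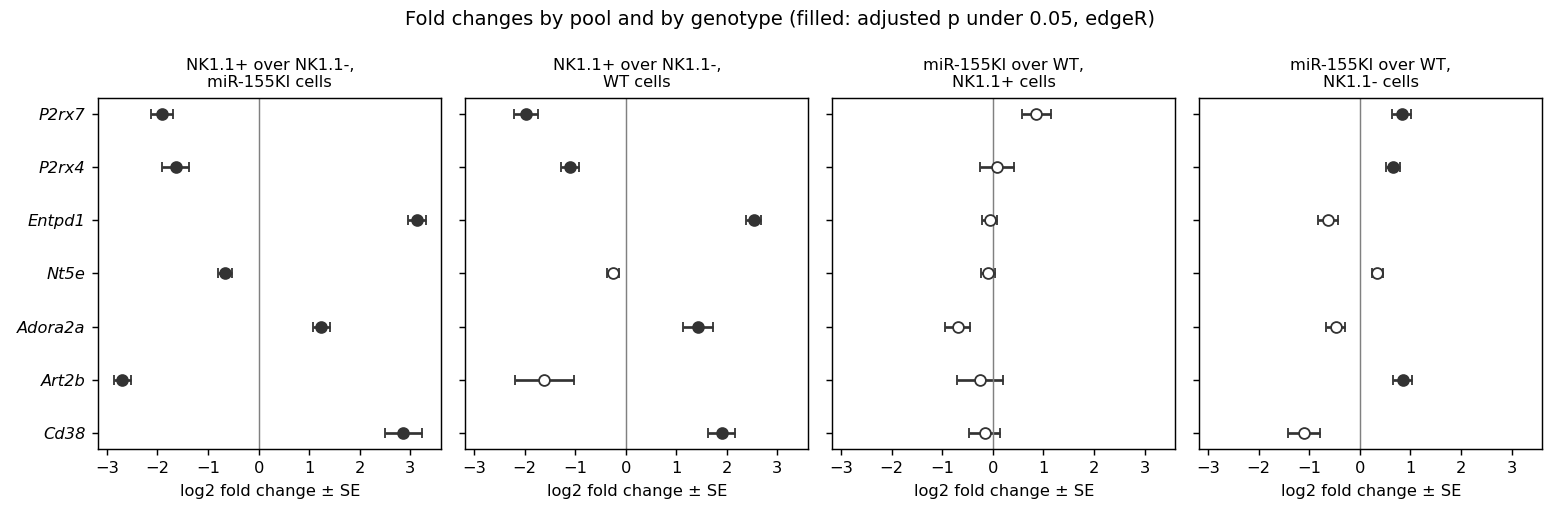
The log2 fold change with its SE (x axis) of each gene (y axis) in the 4 comparisons, filled where the edgeR adjusted p was under 0.05. All 7 points are filled for miR-155KI pools, 5 for WT pools, 0 for genotype in NK1.1+ cells and 3 for genotype in NK1.1- cells.

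Genes that mark the *i*NKT subsets moved between the pools and, in NK1.1- cells, between the genotypes. Between the genotypes in NK1.1+ cells, 0 of 15 *i*NKT1, 0 of 11 *i*NKT2 and 0 of 14 *i*NKT17 genes passed. Over all genes tested, 1.93% rose and 1.5% fell in miR-155KI NK1.1- relative to WT NK1.1- cells. Of 15 *i*NKT1 genes, 9 fell and 0 rose in miR-155KI NK1.1- relative to WT NK1.1- cells, with a summed level of 966 to 1267 CPM in miR-155KI libraries and 1690.2 to 2181 CPM in WT libraries. Of 11 *i*NKT2 genes, 6 rose and 0 fell, with a summed level of 5783 to 6028 CPM in miR-155KI NK1.1- libraries and 3912 to 4251 CPM in WT NK1.1- libraries. Of 14 *i*NKT17 genes, 12 fell and 1 rose, *Il17rb*, which is also on the *i*NKT2 list. The summed level was 428 to 502 CPM in miR-155KI NK1.1- libraries and 407 to 505 CPM in WT NK1.1- libraries. *Il17rb* was the largest part of this sum, at 375 to 424 CPM in the former libraries and 198 to 244 CPM in the latter. The similar sums therefore do not show the fall of the 12 genes. Between the pools, 14 of 15 *i*NKT1 genes were higher in NK1.1+ cells of either genotype, and *i*NKT2 genes were lower, 11 of 11 in miR-155KI and 10 of 11 in WT cells. Of 14 *i*NKT17 genes, 2 were lower in NK1.1+ cells in miR-155KI and 10 in WT, and 0 were higher in either. Over all genes tested, 7.92% were higher and 6.15% lower in miR-155KI cells, and 9.89% were higher and 10.9% lower in WT cells. The part of the subset mix in the levels of the 7 genes was not tested.

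A miRNA pairs with 3′ UTRs mainly through its seed, and miR-155 is shown here because it is what the knock-in allele expresses. The mature sequence is from RefSeq (GRCm38.p6, chr16:84714143-84714165, plus strand), with bases 2 to 8 in capitals.
mmu-miR-155-5p: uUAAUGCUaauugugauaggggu
The sites searched were AGCATTAA, AGCATTA and GCATTAA in annotated 3′ UTRs of GENCODE M21, read on the strand of the transcript, and the first holds the other 2. None of the 3 was found in a 3′ UTR of the 7 genes, whose longest 3′ UTRs ran between 848 bases, for *Adora2a*, and 2985 bases, for *P2rx7*. Over 21153 genes with a 3′ UTR, 3.40% held AGCATTAA, 9.55% held AGCATTA and 8.98% held GCATTAA.

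*P2rx7* encodes the ATP-gated channel that, at high ATP, opens a large conductance and can kill T cells. It lies at chr5:122643911-122691432 on the plus strand of GRCm38. In NK1.1+ cells it stood at 30.7, 35.9 and 20.6 CPM in miR-155KI libraries, against 19.8, 15.6 and 12.2 CPM in WT libraries. In NK1.1- cells it stood at 124, 109 and 93.8 CPM in miR-155KI libraries, against 82.2, 49.8 and 50.6 CPM in WT libraries. Every miR-155KI library was above every WT library of its pool, and every NK1.1- library was above every NK1.1+ library. The fall in NK1.1+ relative to NK1.1- cells was -1.90 ± 0.22 (log2, SE) in miR-155KI cells with an edgeR adjusted p of 4.19e-04, and -1.97 ± 0.24 in WT cells with an edgeR adjusted p of 2.44e-04. In NK1.1- cells *P2rx7* was 1.77-fold higher in miR-155KI than in WT, with a log2 fold change of 0.83 ± 0.19 (SE) and an edgeR adjusted p of 0.0475. WT replicate 1 was the highest WT library in both pools, and against it alone the log2 fold change was 0.41, with an edgeR adjusted p of 0.388. In NK1.1+ cells the log2 fold change was 0.86 ± 0.29 (SE), which did not pass, with an edgeR adjusted p of 0.308, and it was 0.55 against WT replicate 1 alone. The interaction was 0.04 ± 0.34 (log2, SE), and its sign turned with the setting. The call in NK1.1- cells was lost when any library but WT NK1.1- replicate 1 was left out, with edgeR adjusted p-values between 0.0686 and 0.177. The exons share 119 bases with *Mir8115*, a miRNA gene on the same strand.

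*P2rx4* encodes a second ATP-gated channel, which responds to lower ATP than the *P2rx7* channel. It lies at chr5:122707544-122729738 on the plus strand, 16111 bases from *P2rx7*. It stood at 18.7, 15.5 and 9.08 CPM in miR-155KI NK1.1+ libraries, against 12.7, 12.5 and 15.3 CPM in WT NK1.1+ libraries. It stood at 42.8, 44.4 and 48.0 CPM in miR-155KI NK1.1- libraries, against 26.8, 25.6 and 32.4 CPM in WT NK1.1- libraries. The genotypes overlapped in NK1.1+ cells and were apart in NK1.1- cells, where the spread within each group was small. *P2rx4* rose 1.58-fold in miR-155KI NK1.1- cells (log2 0.66 ± 0.14 SE, edgeR adjusted p = 0.0246), while in NK1.1+ cells its log2 fold change was 0.08 ± 0.34 (SE, edgeR adjusted p = 0.954). Against WT replicate 1 alone, the NK1.1- log2 fold change was 0.75, with an edgeR adjusted p of 0.109. The call was also lost without WT NK1.1- replicate 2 or any 1 of the miR-155KI NK1.1- libraries, at edgeR adjusted p-values of 0.0746 to 0.110. *P2rx4* fell in NK1.1+ relative to NK1.1- cells of both genotypes, by 1.64 on the log2 scale in miR-155KI cells (edgeR adjusted p = 0.00335) with a log2 fold change of -1.10 in WT cells (edgeR adjusted p = 0.00117). The interaction was -0.58 ± 0.33 (log2, SE), with an edgeR adjusted p of 0.707.

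*Entpd1*, the gene of the ATP-degrading enzyme CD39, showed the largest pool difference of the 7 genes. It lies at chr19:40612366-40741602 on the plus strand. It stood at 73.2, 93.2 and 87.5 CPM in miR-155KI NK1.1+ libraries, against 95.0, 88.3 and 79.1 CPM in WT NK1.1+ libraries. It stood at 9.43, 10.5 and 9.21 CPM in miR-155KI NK1.1- libraries, against 15.8, 15.7 and 12.9 CPM in WT NK1.1- libraries. The NK1.1+ libraries of both genotypes overlapped, while every miR-155KI NK1.1- library was below every WT NK1.1- library. *Entpd1* was 8.71-fold higher in NK1.1+ than in NK1.1- cells of miR-155KI mice (log2 3.12 ± 0.18 SE, edgeR adjusted p = 1.31e-05) and 5.78-fold higher in WT mice (log2 2.53 ± 0.15 SE, edgeR adjusted p = 4.71e-06). The genotype difference in NK1.1- cells, -0.63 ± 0.20 (log2, SE), did not pass over all genes (edgeR adjusted p = 0.115), and it was -0.70 against WT replicate 1 alone. In NK1.1+ cells the log2 fold change was -0.06 ± 0.15 (SE). The interaction, 0.56 ± 0.22 (log2, SE), had an unadjusted p of 0.0200 and an edgeR adjusted p of 0.515.

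*Nt5e*, which encodes the AMP-hydrolyzing enzyme CD73, had the smallest pool difference. It lies at chr9:88327197-88372092 on the plus strand. It stood at 108, 110.3 and 135 CPM in miR-155KI NK1.1+ libraries, against 131, 117 and 126 CPM in WT NK1.1+ libraries. It stood at 183, 206 and 169 CPM in miR-155KI NK1.1- libraries, against 139, 154 and 140.5 CPM in WT NK1.1- libraries. The NK1.1+ groups overlapped, and the miR-155KI NK1.1- libraries were the 3 highest of the 12. *Nt5e* fell in NK1.1+ relative to NK1.1- cells of miR-155KI mice by 0.66 on the log2 scale (SE 0.13, edgeR adjusted p = 0.0105), and without miR-155KI NK1.1- replicate 2 the edgeR adjusted p was 0.0603. In WT mice the log2 fold change was -0.24 ± 0.12 (SE, edgeR adjusted p = 0.174). The genotype difference in NK1.1- cells was 0.35 ± 0.11 (log2, SE), with an edgeR p of 0.00929 and an adjusted p of 0.119. The interaction was -0.45 ± 0.17 (log2, SE), with an unadjusted p of 0.0213 and an edgeR adjusted p of 0.524.

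*Adora2a*, which encodes the adenosine receptor that raises cAMP, lies at chr10:75316877-75334784 on the plus strand. It stood at 137, 193 and 211 CPM in miR-155KI NK1.1+ libraries, against 187, 301 and 375 CPM in WT NK1.1+ libraries. It stood at 75.2, 81.8 and 72.5 CPM in miR-155KI NK1.1- libraries, against 71.6, 117 and 125 CPM in WT NK1.1- libraries. WT replicate 1 was the lowest WT library in both pools, by a wide margin, and it alone made the genotypes overlap in NK1.1- cells. *Adora2a* rose in NK1.1+ relative to NK1.1- cells, by a log2 fold change of 1.23 ± 0.17 (SE) in miR-155KI cells (edgeR adjusted p = 0.00110) and 1.43 ± 0.30 in WT cells (edgeR adjusted p = 0.0137). The genotype difference among NK1.1+ libraries was -0.70 ± 0.24 (log2, SE, edgeR adjusted p = 0.315). Among NK1.1- libraries it was -0.47 ± 0.19 (log2, SE, edgeR adjusted p = 0.217), and neither passed. Against WT replicate 1 alone, *Adora2a* gave -0.06 for NK1.1+ and 0.10 for NK1.1- cells, while without that library the NK1.1- value was -0.68 with an edgeR adjusted p of 0.00313.

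*Art2b* encodes the ADP-ribosyltransferase ARTC2.2 and lies at chr7:101576970-101585600 on the minus strand. It stood at 16.9, 13.2 and 13.2 CPM in miR-155KI NK1.1+ libraries, against 31.7, 10.8 and 8.76 CPM in WT NK1.1+ libraries. It stood at 95.0, 94.9 and 89.6 CPM in miR-155KI NK1.1- libraries, against 69.9, 44.8 and 38.6 CPM in WT NK1.1- libraries. The miR-155KI NK1.1- libraries lay close together and above all others, and WT replicate 1 was again the highest WT library of each pool. *Art2b* rose 1.81-fold in miR-155KI NK1.1- cells (log2 0.85 ± 0.19 SE, edgeR adjusted p = 0.0344), and against WT replicate 1 alone the log2 fold change was 0.42 (edgeR adjusted p = 0.231). Leaving out any library but WT NK1.1- replicate 1 also ended the call, at edgeR adjusted p-values of 0.0838 to 0.145, with log2 fold changes of 0.68 to 0.88. In NK1.1+ cells the log2 fold change was -0.25 ± 0.45 (SE), and without WT NK1.1+ replicate 1 it was 0.55, so that the direction there rested on 1 library. *Art2b* fell by 2.69 on the log2 scale in NK1.1+ relative to NK1.1- cells of miR-155KI mice (SE 0.17, edgeR adjusted p = 1.48e-05). In WT mice the log2 fold change was -1.61 ± 0.58 (SE) and did not pass (edgeR adjusted p = 0.120), but with the replicate number as a block it was -1.79 with an edgeR adjusted p of 8.49e-06, and without WT NK1.1+ replicate 1 it was -2.42 with an edgeR adjusted p of 1.51e-04. The interaction was -1.11 ± 0.55 (log2, SE, edgeR adjusted p = 0.647).

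The neighbouring *Art2a-ps*, annotated as a polymorphic pseudogene, lies 16104 bases from *Art2b*, and an alignment of a transcript of each was identical at 88.6% of 1184 aligned bases, so reads may have been split between them. *Art2a-ps* had 1.92, 2.05 and 0.631 CPM in miR-155KI NK1.1+ libraries, against 0.258, 0.292 and 0.701 CPM in WT NK1.1+ libraries, and 6.75, 9.18 and 4.50 CPM in miR-155KI NK1.1- libraries, against 2.23, 1.54 and 1.62 CPM in WT NK1.1- libraries. Like *Art2b*, it was highest in the 3 miR-155KI NK1.1- libraries. In WT NK1.1+ cells replicate 1 was the highest library for *Art2b* but not for *Art2a-ps*, which had only 5, 5 and 14 counts in replicates 1, 2 and 3. *Art2a-ps* rose in miR-155KI NK1.1- cells by a log2 fold change of 1.90 ± 0.36 (SE, edgeR adjusted p = 0.0110).

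*Cd38*, the gene of the main NAD-consuming surface enzyme, lies at chr5:43868553-43912375 on the plus strand. It stood at 21.8, 27.3 and 55.1 CPM in miR-155KI NK1.1+ libraries, against 37.2, 43.1 and 34.9 CPM in WT NK1.1+ libraries. It stood at 4.38, 4.81 and 5.14 CPM in miR-155KI NK1.1- libraries, against 13, 11.6 and 5.80 CPM in WT NK1.1- libraries. The NK1.1+ groups overlapped because 1 miR-155KI library was the highest and the other two were the lowest, and in NK1.1- cells WT replicate 3 was just above the miR-155KI libraries. *Cd38* was 7.26-fold higher in NK1.1+ than in NK1.1- cells of miR-155KI mice (log2 2.86 ± 0.37 SE, edgeR adjusted p = 8.89e-04) and 3.72-fold higher in WT mice (log2 1.89 ± 0.27 SE, edgeR adjusted p = 5.40e-04). The genotype difference in NK1.1- cells, -1.10 ± 0.31 (log2, SE), did not pass (edgeR adjusted p = 0.0755), while it was -1.44 against WT replicate 1 alone and -1.39, with an edgeR adjusted p of 0.0231, without WT NK1.1- replicate 3. In NK1.1+ cells the log2 fold change was -0.16 ± 0.31 (SE), and the interaction was 0.94 ± 0.46 (log2, SE, edgeR adjusted p = 0.629).

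**Figure D3:**
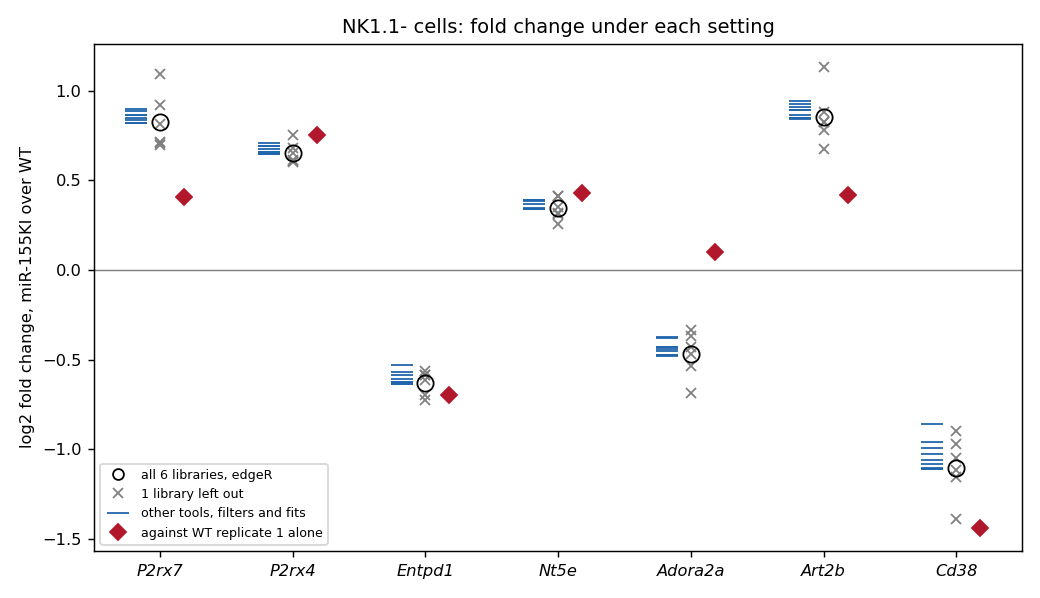
The log2 fold change, miR-155KI over WT, of each gene in NK1.1- cells (y axis) with all 6 libraries, with 1 library left out, with other tools, filters and fits, and against WT replicate 1 alone. Against that library, *P2rx7* and *Art2b* stood at 0.41 and 0.42, against 0.83 and 0.85 with all 6 libraries, and *Adora2a* stood at 0.10, against -0.47.

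Transcripts of other cells were present and moved with some groups. The 14 macrophage and dendritic cell markers summed to 337 to 1024 CPM in miR-155KI NK1.1+ libraries and 128 to 150 CPM in WT NK1.1+ libraries, and to 146 to 197 CPM in miR-155KI NK1.1- libraries and 128 to 264 CPM in WT NK1.1- libraries. *C1qa*, a complement gene of macrophages, had 18.6, 68.9 and 25 CPM in miR-155KI NK1.1+ libraries, against 2.58, 1.52 and 1.95 CPM in WT NK1.1+ libraries, and *Marco* was at 0 in 4 of the 12 libraries. Not all markers did the same. Of 10 tested between the genotypes in NK1.1+ cells, 2 rose and 0 fell. *Cd68* overlapped, at 3.97 to 31.6 CPM in miR-155KI and 4.80 to 11.3 CPM in WT NK1.1+ libraries. *Itgax* averaged 0.804 ± 1.01 and 1.38 ± 0.487 CPM there. The largest part of the highest sum was *Apoe*, at 491 CPM. In miR-155KI NK1.1+ cells, *P2rx7* and *Entpd1* were highest in replicate 2, the library with the highest marker sum. Without that library *P2rx7* was 0.68 and *Entpd1* -0.14 on the log2 scale, miR-155KI over WT, in NK1.1+ cells, and the part of macrophage RNA in the 7 levels was not tested. The 10 markers of CD4+CD8+ thymocytes summed to 254, 37.1 and 46.3 CPM in miR-155KI NK1.1+ replicates 1, 2 and 3, against 21.0 to 21.6 CPM in WT NK1.1+ libraries. They summed to 15.7 to 42.1 CPM in miR-155KI NK1.1- libraries and 49.1 to 82.0 CPM in WT NK1.1- libraries. Among miR-155KI NK1.1+ libraries, replicate 1 was lowest for *Entpd1*, *Nt5e*, *Adora2a* and *Cd38*, highest for *P2rx4* and *Art2b* and in between for *P2rx7*. The part of thymocyte RNA in the 7 levels was not tested. The 10 B cell markers summed to 273 to 330.0 CPM and 250.1 to 309 CPM in miR-155KI and WT NK1.1+ libraries, and to 97.8 to 160.0 CPM and 156 to 293 CPM in miR-155KI and WT NK1.1- libraries, mostly from *Ighm*, with *Ms4a1* at most at 5.17 CPM and above 0 in all libraries.

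Levels of different genes can be compared only per length, and CPM per kb of annotated exon is used for that. In NK1.1+ cells *Adora2a* was the highest, at 58.8 ± 12.6 CPM per kb in miR-155KI and 94.0 ± 31.0 CPM per kb in WT cells. It was followed by *Entpd1*, at 15.2 ± 1.84 and 15.7 ± 1.43 CPM per kb in miR-155KI and WT cells, and *Nt5e*, at 13.7 ± 1.72 and 14.5 ± 0.835 CPM per kb, and these neighbours were within their spread. *P2rx4* was lowest, at 2.05 ± 0.697 and 1.92 ± 0.226 CPM per kb. In NK1.1- cells the order was another one. In miR-155KI NK1.1- cells *Art2b* led with 33.0 ± 1.1 CPM per kb, before *Adora2a* with 25 ± 1.57, *Nt5e* with 21.6 ± 2.20 and *P2rx7* with 18.2 ± 2.54 CPM per kb, and both *Adora2a* with *Nt5e* and *Nt5e* with *P2rx7* overlapped within 1 SD. In WT NK1.1- cells *Adora2a* led with 34.1 ± 9.38 CPM per kb, before *Art2b* with 18.1 ± 5.85 and *Nt5e* with 16.8 ± 0.958 CPM per kb, which did not differ beyond their spread. *Entpd1* and *Cd38* closed the order in both, at 1.74 ± 0.127 and 1.23 ± 0.0980 CPM per kb in miR-155KI NK1.1- cells and at 2.66 ± 0.291 and 2.60 ± 0.980 CPM per kb in WT NK1.1- cells.

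Another 52 genes of the same pathways, namely the other P2X and P2Y receptors, ecto-nucleotidases, adenosine receptors, kinases and transporters, NAD ectoenzymes, ATP release channels and NAD synthesis genes, were read in the same tests. In miR-155KI NK1.1- relative to WT NK1.1- cells, 2 of 27 tested rose and 0 fell, beside 3.44% of all genes tested. In edgeR 10 of the 27 had an unadjusted p under 0.05, as did 2457 of all 13304 genes tested. The 2 that rose were *Art2a-ps*, given above, and *Slc29a1*, the equilibrative transporter that carries adenosine across the membrane. For these 2 genes no fit against WT replicate 1 alone, over all 12 libraries or with 1 library left out is given. *Slc29a1* averaged 134 ± 31.9 and 103 ± 7.98 CPM in miR-155KI and WT NK1.1+ cells, and 453 ± 88.9 and 256 ± 37.4 CPM in miR-155KI and WT NK1.1- cells, and its log2 fold change in NK1.1- cells was 0.80 ± 0.15 (SE, edgeR adjusted p = 0.0166). In NK1.1+ cells 0 of 24 passed between the genotypes in edgeR, with 5 at an unadjusted p under 0.05, beside 1539 of all 12991 genes tested. For the interaction 0 of 32 passed, with 1 at an unadjusted p under 0.05, beside 1167 of all 14401 genes tested.

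More of these 52 genes differed between the pools. In miR-155KI cells 3 of 25 tested rose and 4 fell in NK1.1+ relative to NK1.1- cells, beside 14.1% of all genes tested. In WT cells 5 of 29 rose and 5 fell, beside 20.8% of all genes tested. *Slc29a1* fell in both, by 1.76 on the log2 scale in miR-155KI cells (edgeR adjusted p = 4.23e-04) and by 1.35 in WT cells (edgeR adjusted p = 6.54e-05). *Adk*, the kinase that turns adenosine into AMP inside the cell, fell by 1.36 in miR-155KI cells (edgeR adjusted p = 8.94e-04) and by 1.95 in WT cells (edgeR adjusted p = 9.25e-06). *P2ry10*, a receptor gene grouped with the P2Y family, had a log2 fold change of 1.44 in miR-155KI cells (edgeR adjusted p = 0.00383) and, not passing, 1.49 in WT cells (edgeR adjusted p = 0.127). *Slc28a2*, a concentrative nucleoside transporter, rose by 0.67 (edgeR adjusted p = 0.00617) and 0.54 (edgeR adjusted p = 0.0109) in miR-155KI and WT cells. *Nmnat2*, an enzyme of NAD synthesis, rose by 1.66 (edgeR adjusted p = 0.0208) and 1.42 (edgeR adjusted p = 5.81e-04) in miR-155KI and WT cells. *Alpl*, a phosphatase that can also release adenosine from AMP, had -1.83 in miR-155KI cells without passing (edgeR adjusted p = 0.0574) and fell by 2.19 in WT cells (edgeR adjusted p = 5.96e-04). The median log2 fold change of the pathway genes tested was -0.05 in miR-155KI and -0.23 in WT cells, against 0.03 and 0.01 over all genes.

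**Figure D4:**
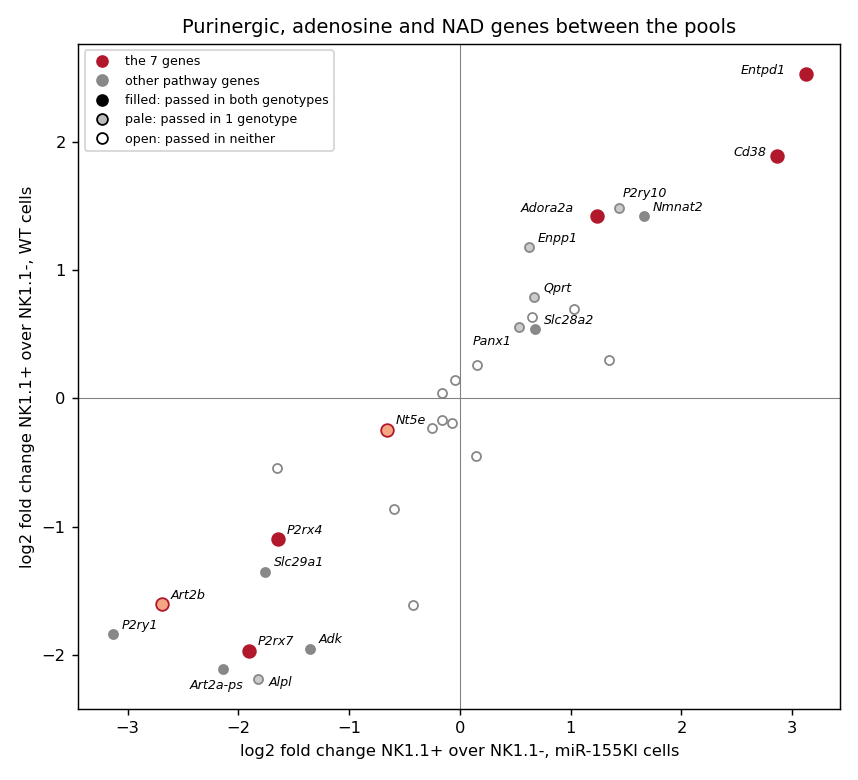
The log2 fold change of NK1.1+ over NK1.1- cells in miR-155KI (x axis) and in WT (y axis) cells for the 31 genes tested in both, with the 7 genes in red. Points are filled where the edgeR adjusted p was under 0.05 in both genotypes, pale where it was so in 1 and open where it was so in neither.

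The starts of *P2rx7* and *Art2b*, which rose in miR-155KI NK1.1- cells, and of *Entpd1* are shown because they moved in opposite directions between the pools and held matches. Of the 7 genes, 6 had an entry, all but *Adora2a*. Each stretch runs 250 bases before to 50 after a start in RefSeq (GRCm38.p6), with matches to the motifs searched in capitals. The motifs were AGGTGTGA (T-box), TGTGGT (RUNX), CAGCTG (E-box), CCGGAAGT (ETS) and TGANTCA (AP-1), on both strands. *P2rx7* is at chr5:122643677-122643976 on the plus strand, *Art2b* at chr7:101581112-101581411 on the minus strand, and the 2 starts of *Entpd1* at chr19:40612116-40612415 and chr19:40659520-40659819 on the plus strand.
*P2rx7*, first start: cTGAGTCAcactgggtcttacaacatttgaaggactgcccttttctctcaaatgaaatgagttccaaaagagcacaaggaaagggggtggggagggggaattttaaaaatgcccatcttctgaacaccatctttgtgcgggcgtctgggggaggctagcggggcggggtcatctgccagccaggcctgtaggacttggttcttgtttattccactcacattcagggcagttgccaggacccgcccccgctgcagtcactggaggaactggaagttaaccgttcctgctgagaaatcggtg
*Art2b*: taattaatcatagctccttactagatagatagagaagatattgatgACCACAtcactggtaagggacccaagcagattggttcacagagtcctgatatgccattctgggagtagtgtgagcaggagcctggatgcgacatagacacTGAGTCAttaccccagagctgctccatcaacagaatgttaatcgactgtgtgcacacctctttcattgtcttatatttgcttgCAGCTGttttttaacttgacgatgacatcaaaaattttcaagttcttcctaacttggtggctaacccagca
*Entpd1*, first start: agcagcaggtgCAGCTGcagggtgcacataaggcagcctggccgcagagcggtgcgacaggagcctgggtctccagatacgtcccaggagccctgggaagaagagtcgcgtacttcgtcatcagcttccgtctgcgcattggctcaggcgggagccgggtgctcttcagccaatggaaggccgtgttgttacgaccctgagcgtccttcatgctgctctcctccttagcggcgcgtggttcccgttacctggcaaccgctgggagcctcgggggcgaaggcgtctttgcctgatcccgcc
*Entpd1*, other start: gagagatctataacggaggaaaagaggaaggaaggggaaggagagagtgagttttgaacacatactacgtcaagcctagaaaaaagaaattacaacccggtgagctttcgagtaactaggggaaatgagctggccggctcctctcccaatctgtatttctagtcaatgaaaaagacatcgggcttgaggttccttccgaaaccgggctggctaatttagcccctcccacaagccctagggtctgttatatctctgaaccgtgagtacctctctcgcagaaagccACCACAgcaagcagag
The first stretch of *P2rx7* held 1 AP-1 match, whose leftmost base lay at position -249 from the start, and the stretch of *Art2b* held 1 at position -104 beside a RUNX match at position -204 and an E-box match at position -21. *Entpd1* held an E-box match at position -239 of its first start and a RUNX match at position 35 of the other one. No match was found in the stretches of *P2rx4*, *Nt5e* and *Cd38* or at the other start of *P2rx7*. Over 32851 such stretches, 7.81% held the AP-1 letters, 16.8% the RUNX letters, 16.3% the E-box letters, 3.89% the ETS letters and 1.28% the T-box letters, so matches such as these are common. The *Art2b* stretch lay inside the annotated span of the gene, whose 5′ end on the minus strand is at position 101585600. Its motif positions are thus counted from a start within that span. The counts are per gene and do not tell which start was used.

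The genes whose pattern was most like each of the 7 were read from Pearson's correlation of log2(CPM + 1) over the 12 libraries, among 9224 genes, as a description, since the libraries fall into 4 groups that all these genes share. *Entpd1* was most like *PVRIG* (r = 0.996) and *Klre1* (r = 0.995), and *Cd38* was most like *Stat4* (r = 0.981) and *Adssl1* (r = 0.978). *Adora2a* was most like *Sh2d2a* (r = 0.984) and *Il21r* (r = 0.983). *P2rx7* was most like *Prdm16* (r = 0.989) and *Id3* (r = 0.981), *P2rx4* like *Itga7* (r = 0.974) and *H2-Ob* (r = 0.973), and *Art2b* like *Plac8* (r = 0.979) and *Itpr1* (r = 0.967). *Nt5e* had no neighbour above 0.936, its value with *Gadl1* and with *Il21*.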

How the data were processed

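The authors deposited raw counts per gene and a normalized signal table called CPM, in which each library's values are its counts times 1 factor. Reads were demultiplexed with bcl2fastq 2.17.1.14 according to the submitters' notes, and for the aligner and counter the sources used here name none. A SMART-Seq kit is named by the labels and a TruSeq kit by the methods. Counts were tested in R 4.3.3 with edgeR 4.0.16 (TMM, default filter on low counts, robust quasi-likelihood test), each comparison fitted on its own 6 libraries and the interaction on all 12, with Benjamini-Hochberg adjustment over all genes and a threshold of 0.05. DESeq2 1.42.0, limma 3.58.1, other filters and scalings, a replicate block, an all-library fit, WT replicate 1 as the only control and each library left out were the alternatives. All 12 libraries were used. Sequence searches used Python 3.11.15. In the pairing check, deviations from the group means were correlated between same-numbered WT NK1.1+ and WT NK1.1- libraries (r = 0.500, 0.294 and 0.217 over 9858 genes). However, WT NK1.1- replicate 2 and WT NK1.1+ replicate 3 had r = 0.261. By this correlation, only replicate 1 was clearly matched by number between these pools. Among single genes, *Ly6c2* stood at 472 and 88.0 CPM in replicate 2 of the WT NK1.1+ and WT NK1.1- pools. It stood at 9.65 to 19.4 CPM in the other WT libraries. All 7 genes are described in each comparison. Of the other pathway genes, up to 4 with the smallest p among those passing are named per comparison, and for likeness the 2 genes with the highest correlation, predicted and receptor segment genes left out, with a mean of at least 5 CPM. *Klrb1c*, *Mir155hg*, *Xist* and the marker genes serve as checks. The genes and lists were chosen with earlier results of these data known. The scripts were tested on simulated data.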

Additional observations from a re-analysis of the deposited data

How the results depend on the processing

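The pool differences of *P2rx7*, *P2rx4*, *Entpd1*, *Adora2a* and *Cd38* kept their direction and passed in both genotypes under every alternative run. The 3 calls in NK1.1- cells did not. In NK1.1- cells, 0 of the 7 genes passed with all 12 libraries in one fit or against WT replicate 1 alone, 5 passed with no filter on low counts, and leaving out 1 library gave 0 to 4. In NK1.1+ cells 1 passed with no filter, *Adora2a*, and 0 passed for the interaction under any alternative. Over all genes, the genotype count in NK1.1- cells was 962 with DESeq2, 1048 with no filter, 737 with the replicate block, 139 with all 12 libraries, 157 against WT replicate 1 alone and 186 to 917 with 1 library left out, against 457. In NK1.1+ cells it was 241 with DESeq2, 1 with limma-voom, 282 with no filter, 7 with the replicate block, 60 with all 12 libraries, 1 against WT replicate 1 alone and 1 to 125 with 1 library left out, against 3. The interaction gave 124 with DESeq2, 0 with limma-voom, 7 with RLE size factors, 162 with no filter, 10 with at least 10 counts in every library, 23 with the replicate block and 3 to 46 with 1 library left out, against 4. The pool counts were 1832 to 3264 in WT and 788 to 2542 in miR-155KI cells with 1 library left out, lowest without WT NK1.1+ replicate 3 and without miR-155KI NK1.1- replicate 3, against 2819 and 1821, and the pool calls of the 7 genes were 5 to 6 and 6 to 7. The replicate block changed no call of the 7 genes other than *Art2b* between the WT pools. Between the miR-155KI pools, r was 0.180, 0.129 and 0.0889 for same-numbered libraries and at most 0.0139 for other pairs. Between the genotypes it was 0.0839 to 0.321 for same numbers in NK1.1- cells, and at most 0.0660 otherwise. In NK1.1+ cells it was -0.0549 to 0.0504 for same numbers, and up to 0.0805 otherwise. *Ly6c2*, on the *i*NKT1 list, was highest in replicate 2 of all 4 groups, at 59.9 to 472 CPM, against 9.65 to 19.4 CPM in the other libraries. The main fits used no pairing, and what same-numbered libraries share was not tested.

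Signs turned only for values that did not pass. They were *Adora2a* in NK1.1- cells against WT replicate 1 alone (0.098), *Art2b* in NK1.1+ cells on log2(CPM + 0.1) (0.0124), and the interaction of *P2rx7* with limma-voom (-0.0157), on log2(CPM + 1) (-0.0418), on log2(CPM + 0.1) (-0.0140) and with the replicate block (-0.0017). With 1 library left out, the genotype value in NK1.1+ cells ran between -0.14 and 0.0523 for *Entpd1*, -0.56 and 0.55 for *Art2b*, -0.13 and 0.33 for *P2rx4* and -0.65 and 0.11 for *Cd38*, and the interaction between -0.25 and 0.25 for *P2rx7* and -0.46 and 0.00881 for *Adora2a*. The cause of these changes was not tested. Fits with 1 WT library assume that it varies like the others. *Cd38* in NK1.1- cells, near the threshold in edgeR, passed in DESeq2 (adjusted p = 0.0143) and with no filter (edgeR adjusted p = 0.0137), and it rests on as few as 64 counts in a library.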

Other observations

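Replicate 1 of the WT mice differed from the other WT libraries in the same direction in both pools for several of the 7 genes. *P2rx7* had 19.8 CPM in WT NK1.1+ replicate 1, beside 15.6 and 12.2 CPM in the other two, and 82.2 CPM in WT NK1.1- replicate 1, beside 49.8 and 50.6 CPM. *Art2b* had 31.7 CPM in WT NK1.1+ replicate 1, beside 10.8 and 8.76 CPM, and 69.9 CPM in WT NK1.1- replicate 1, beside 44.8 and 38.6 CPM. *Adora2a* had 187 CPM in WT NK1.1+ replicate 1, beside 301 and 375 CPM, and 71.6 CPM in WT NK1.1- replicate 1, beside 117 and 125 CPM. In these 2 libraries *Xist* was low and the Y-linked *Ddx3y* was at 62.5 and 52.5 CPM, against 3.29 to 6.92 CPM in the other WT libraries and 55.5 to 76.6 CPM in the miR-155KI libraries. Marker RNA of other cells was also highest in WT NK1.1- replicate 1 of its group. Macrophage and dendritic cell markers summed to 264 CPM there, beside 128 and 137 CPM, and B cell markers to 293 CPM, beside 187 and 156 CPM. In WT NK1.1+ replicate 1 these sums were 150 and 309 CPM, beside 135 and 128 CPM and 257 and 250.1 CPM. The labels give no sex per library. The part of sex and of other cells' RNA in the 7 levels was not tested.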
